A study of Rattus norvegicus with 4 samples.

Results

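MicroRNA (miRNA) genes give a hairpin whose stem is processed into 2 mature arms, the 5p arm and the 3p arm. The miR-140 arms were examined here in small RNA sequencing of exosomes (Exos) from rat serum. The table of values holds 243 miRNAs, and 1 of them is an arm of miR-140: rno-miR-140-3p. rno-miR-140-5p has no row among these values and was not analysed here. The arms were chosen by name, and miR-140-3p was known beforehand to differ between the groups, so its group difference is given as a description with no test. The 4 libraries come from male SD rats: 2 carry the treatment label Exercise (treadmill training over several weeks) and 2 the label Sedentary, without training. The labels describe groups of 20 rats, but how many rats stand behind a library is not given. The libraries are called Exe-labelled and Sed-labelled below. The titles of the Sed-labelled libraries open with E and those of the Exe-labelled ones with N, so titles and labels may disagree. Which of them names the trained rats was not settled, so whether miR-140-3p was higher or lower after training cannot be read from these values. Every direction below follows the treatment labels and would turn with the title letters.

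miR-140 lies in an intron of Wwp2, a gene for a ubiquitin ligase, and is best known from cartilage, where the transcription factor SOX9 drives it in chondrocytes. Mice without miR-140 have growth plate and articular cartilage defects. An arm that is loaded into an Argonaute protein finds its target mRNAs mainly through the seed, bases 2 to 8 from its 5′ end, so that arms of one hairpin have different targets. Serum Exos come from many tissues, and miR-140 is also made outside cartilage.

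The sequences are shown because the arm that a read belongs to, and its seed, decide what the value of miR-140-3p counts. They are those of RefSeq for the rat assembly GRCr8, where the Mir140 hairpin lies at chr19:52375293-52375391 on the plus strand. In that annotation it lies inside the span of 1 gene, Wwp2, which is on the same strand. For miR-140-3p, the sequence in the deposited table is the same as that of RefSeq, with T in place of U. Capitals mark the seed in the mature arms and both arms in the hairpin.
rno-miR-140-3p: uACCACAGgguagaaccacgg
rno-miR-140-5p: cAGUGGUUuuacccuaugguag
Mir140 hairpin: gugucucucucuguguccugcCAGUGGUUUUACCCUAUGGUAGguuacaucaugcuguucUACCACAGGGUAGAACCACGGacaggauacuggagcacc

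The 3p arm has 21 bases, of which 57.1% are G or C, and the 5p arm has 22, of which 45.5% are G or C. In the hairpin, 17 bases lie between them. In the minimum free energy fold of the 99 bases (-53.6 kcal/mol, ViennaRNA), 19 of the 21 bases of the 3p arm paired with the 5p arm, 1 paired beyond it and 1 was unpaired. Of the 7 seed bases of miR-140-3p, 6 paired with the 5p arm in this fold. The seed ACCACAG occurred in no other of the 243 listed miRNAs, nor in any other of the 693 mature rat names of RefSeq. The seed of the 5p arm, AGUGGUU, was held by no listed miRNA and, in RefSeq, by miR-140-5p alone. miR-140-3p is known to occur also with a 5′ end 1 base later, which moves the seed to CCACAGG. No listed miRNA and no RefSeq name had that seed, and the deposited values give 1 number for miR-140-3p, without separating the forms.

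The closest of the other 242 listed sequences was that of miR-203b-3p, at 8 edits. No listed sequence lay within 3 edits of miR-140-3p. A near-identical listed miRNA that could share its reads was thus not found.

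miR-140-3p was detected in all 4 libraries. The deposited unit is RPM, counted against a total of reads for each library, with no scaling for length. Each value was a whole multiple of the smallest one above 0 in its library (within 0.001), and that smallest value was read as 1 read. By this reckoning the libraries held 20780612 to 22140315 reads, of which 2.93% to 3.92% lay on the listed miRNAs. The numbers of listed miRNAs above 0 were 179 and 191 in the Exe-labelled libraries and 151 and 152 in the Sed-labelled ones. Intervals below are 95% intervals and cover counting error only, since no molecular identifiers tell copies from molecules here.

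In the Exe-labelled libraries, miR-140-3p had 6783 reads or 308.6 RPM (exact Poisson interval 301.3 to 316.1) in replicate 1. Replicate 2 had 6077 reads or 274.5 RPM (267.6 to 281.5). In the Sed-labelled libraries it had 2573 reads or 116.9 RPM (112.4 to 121.5) in replicate 1 and 2540 reads or 122.2 RPM (117.5 to 127.1) in replicate 2. Both Exe-labelled libraries were high and both Sed-labelled ones low, with no overlap. The group means were 291.6 ± 24.2 RPM (SD, n = 2) and 119.6 ± 3.79 RPM (SD, n = 2), a ratio of 2.44. The smallest ratio between a library of one group and a library of the other was 2.25 and the largest 2.64. On the scale of log2(RPM + 1), the difference was 1.28 with a standard error of 0.16 from limma. A larger share of vesicles that carry miR-140-3p and more of it in each such vesicle cannot be told apart by these values.

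**Figure D1:**
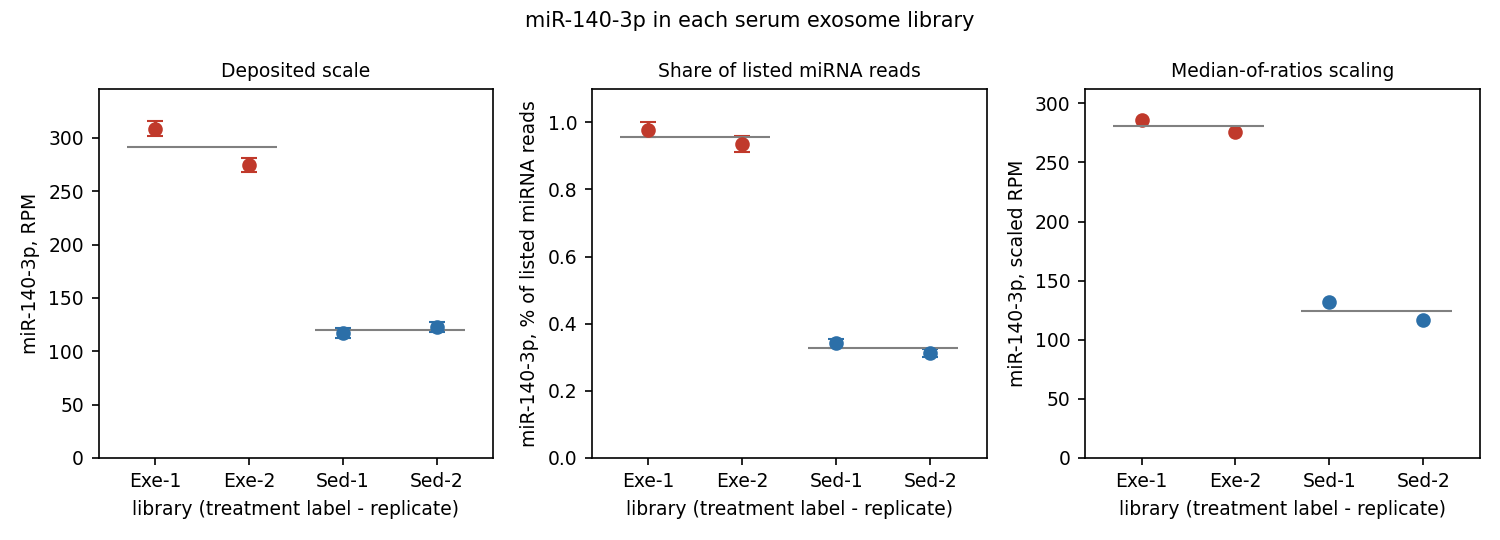
miR-140-3p in each library (x axis, Exe and Sed for the treatment labels, with the replicate number) as RPM, as the percent of the reads on listed miRNAs, and as RPM after median-of-ratios scaling. Points are libraries, grey lines group means, and bars 95% counting intervals (exact Poisson, then Wilson; none in the right panel); the Exe-labelled libraries lie at 274.5 and 308.6 RPM and the Sed-labelled ones at 116.9 and 122.2 RPM.

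The difference kept its direction and the groups stayed apart on 2 further scales. As a share of the reads on listed miRNAs, miR-140-3p made up 0.979% (95% Wilson interval 0.956% to 1.00%) and 0.936% (0.913% to 0.960%) in the Exe-labelled libraries. It made up 0.341% (0.328% to 0.355%) and 0.312% (0.300% to 0.324%) in the Sed-labelled ones. The ratio of group means on this scale was 2.93. With median-of-ratios scaling, which sets the typical miRNA among those above 0 in every library equal, the values were 286.0 and 275.9 against 131.7 and 116.4 scaled RPM, and the ratio was 2.26. The median log2 fold change of all 178 miRNAs tested was 0.21 with the deposited values, 0.18 with median-of-ratios scaling and 0.68 as a share of the reads on listed miRNAs. Relative to these medians, miR-140-3p was higher by 1.07, 1.00 and 0.88 on the log2 scale.

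Ratios of 2 miRNAs within a library do not depend on the scaling. There were 80 other miRNAs above 0 in every library whose mean reached 10 RPM. For 66 of them, the ratio of miR-140-3p to the other was higher in both Exe-labelled libraries than in both Sed-labelled ones. For 5 it was lower in both: miR-150-5p, miR-23b-3p, miR-30c-5p, miR-708-3p and miR-98-5p, which are named after their values were seen. For the remaining 9 the groups overlapped. The miR-140-3p value, chosen with its difference known, enters every ratio, so these counts are a description from which nothing is read. The median change of the log2 ratio was 1.11, with a range from -1.69 (miR-30c-5p) to 3.30.

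The replicate libraries were compared next, which does not use the contrast between the groups. miR-140-3p was chosen with its call known, and a call is more likely where replicates lie close. How close its replicates lie is thus not independent of that choice. Within the label Exercise, replicate 1 held 1.12 times the RPM of replicate 2 (95% interval 1.09 to 1.16), more than counting error allows (two-sided exact binomial test, p = 3.1e-11, adjusted over 2 tests 6.2e-11). Within the label Sedentary, replicate 2 held 1.05 times the RPM of replicate 1 (0.990 to 1.11, two-sided exact binomial test, p = 0.11, adjusted over 2 tests 0.11). These tests compare libraries, not conditions. The same ratio was then set beside those of other miRNAs with a mean of at least 10 RPM. In the Sed-labelled libraries its absolute log2 ratio between replicates was 0.065, where the median was 0.43, and 8 of 81 miRNAs, counting miR-140-3p, had a smaller one. In the Exe-labelled ones it was 0.17, where the median was 0.24, and 32 of 82 had a smaller one.

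Among the miRNAs of a library, miR-140-3p was the 16th highest in both Exe-labelled libraries and the 24th and 28th in the Sed-labelled ones. Its level was 42.4 and 53.3 times the median of the miRNAs above 0 in the Exe-labelled libraries. It was 9.19 and 11.3 times that median in the Sed-labelled ones, where fewer miRNAs were above 0 and the median itself was higher (12.7 and 10.8 RPM, against 7.28 and 5.15). The highest miRNA in each library was miR-486, which is abundant in red cells. miR-140-3p stood at 5.41% and 5.81% of its level in the Exe-labelled libraries and at 1.34% and 1.10% in the Sed-labelled ones. Levels of different miRNAs are compared here as reads without length scaling, and ligation in library preparation favours some sequences over others.

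**Figure D2:**
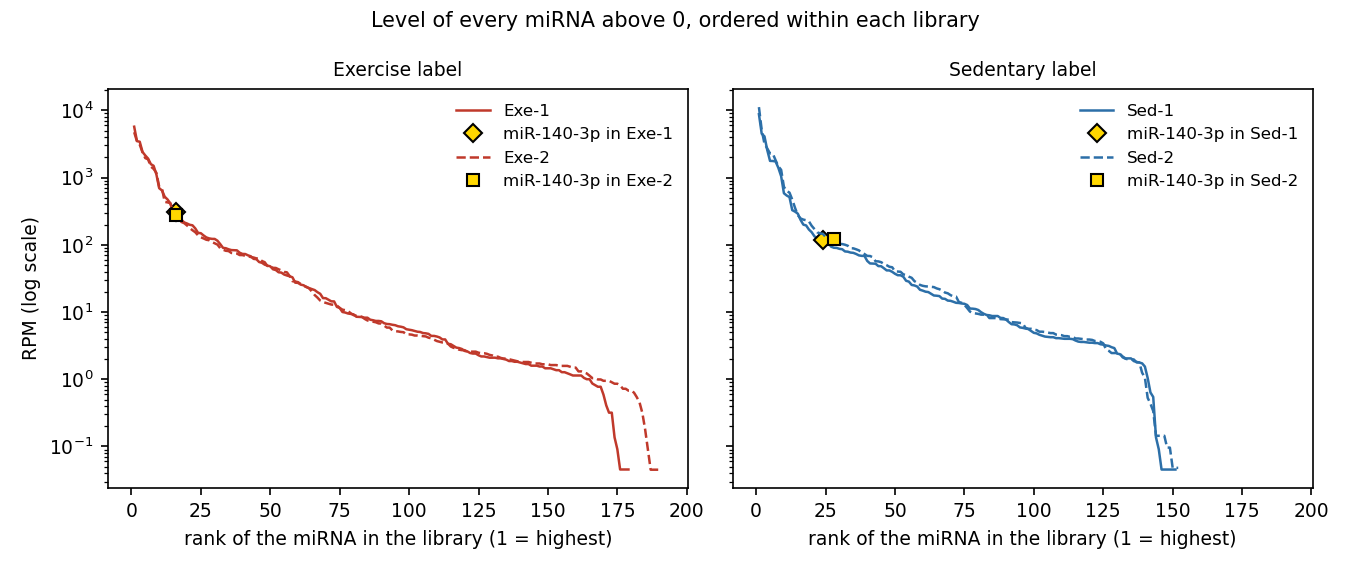
RPM on a log axis of each miRNA above 0, ordered by rank in the Exe-labelled libraries (left) and the Sed-labelled ones (right). Lines are libraries and gold symbols mark miR-140-3p, at rank 16 in both Exe-labelled libraries and at ranks 24 and 28 in the Sed-labelled ones.

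By its mean over the 4 libraries, 205.6 RPM, miR-140-3p ranked 16 of 243. The next above it, miR-3557-5p, held 328.7 and 260.5 RPM in the Exe-labelled libraries and 311.6 and 471.2 in the Sed-labelled ones, so the order of the pair differed between libraries. The other neighbour above it, miR-30e-3p, was above miR-140-3p in each library, at 518.6 and 427.7 against 194.1 and 231.9 RPM. Just below it, miR-26a-5p held 287.9 and 300.8 RPM under the label Exercise and 133.8 and 96.9 under the label Sedentary. It was above miR-140-3p in 2 libraries and below it in 2, so their order is not set by these values. miR-28-3p, the second below, ran the other way, with 137.6 and 124.3 against 234.6 and 275.7 RPM.

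The limma comparison across 178 miRNAs above 0 in at least 2 libraries called 14 (7.87%), with both an adjusted p below 0.05 and a log2 fold change beyond 1 in either direction required. Higher values in the Exe-labelled libraries were found for 9 of them (5.06%) and lower values for 5. miR-140-3p was among the 9, which was known when it was chosen and from which nothing is read. It was not among the called with a single variance prior or without Exercise replicate 1, where limma called 0. Both Exe-labelled libraries lay above both Sed-labelled ones for 57 miRNAs (32.0%), miR-140-3p included. A log2 fold change larger in size than that of miR-140-3p, in either direction, was found for 45 of the 178, and for 14 of the 82 miRNAs with a mean of at least 10 RPM. With median-of-ratios scaling 5 were called higher and 9 lower, and as a share of listed reads 25 and 4. Nothing in the labels says whether the libraries come from separate serum pools, so p-values measure the spread between these libraries. For a single miRNA in groups of 2, the smallest p of a two-sided exact permutation test is 0.33.

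**Figure D3:**
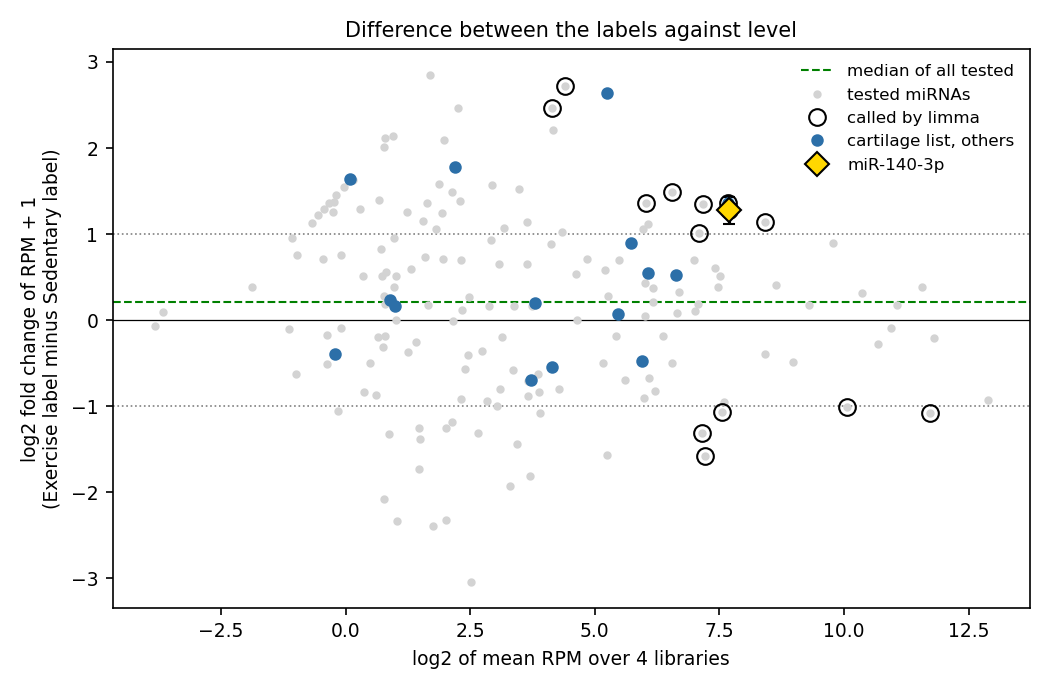
The log2 fold change of RPM + 1 (y axis, Exercise label minus Sedentary label) against the log2 of mean RPM (x axis) for 178 miRNAs, with those called by limma circled, the other 15 tested miRNAs of the cartilage list in blue and the median of all in green. The gold diamond is miR-140-3p at 1.28, with a bar of 1 standard error (0.16), and partly covers miR-26a-5p at 1.36.

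Other miRNAs known from cartilage were taken from a list of 27 names that was drawn up with earlier results of these values known. Of the 27, 19 had a row, and 15 besides miR-140-3p were tested. Of these 15, limma called 1, which was higher in the Exe-labelled libraries, where 5.06% of all tested were called higher; a share near that of all miRNAs is no result about the list. Both Exe-labelled libraries lay above both Sed-labelled ones for 7 of the 15 (32.0% of all tested) and below both for 1 (20.2% of all tested). The median log2 fold change of the 15 was 0.24, beside 0.21 over all 178, with a range from -0.70 to 2.64.

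The member called was miR-26a-5p, known from work on chondrocytes and many other cells. It was higher by 1.36 on the log2 scale (SE 0.20, limma adjusted p = 0.025), with no overlap of the values given above. It was not called with median-of-ratios scaling, without the filter on low values, with a single variance prior or without Exercise replicate 1 (limma adjusted p = 0.14). miR-23b-3p had the largest fold change of the list, 2.64, but its Sed-labelled libraries held 3.27 and 23.5 RPM against 61.0 and 64.7, and it was not called (limma adjusted p = 0.10).

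miR-455-3p, whose gene lies in Col27a1 and is also driven by SOX9, had 82 reads in replicate 2 of the Exe-labelled libraries and 0 in the other 3. With no read found, up to 3 reads (0.136 to 0.144 RPM in these 3 libraries) remain possible. miR-199a-5p, which is known to act in chondrogenesis, had 53 and 41 reads in the Exe-labelled libraries and 0 in both Sed-labelled ones. Limma did not call it (adjusted p = 0.11). miR-27b-3p, which is known to act on the collagenase gene Mmp13, held 82.7 and 75.7 RPM against 52.8 and 55.1 and was not called (limma adjusted p = 0.15). miR-145-5p, a regulator of SOX9, held 6.64 and 12.9 against 11.3 and 21.8 RPM, with overlap. miR-140-3p was the highest or second highest of the list in each library, in turn with miR-26a-5p, and made up 20.1% to 28.6% of its summed RPM.

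The summed levels of 4 lists of miRNAs that mark blood cells and tissues are given as values beside the difference of miR-140-3p. The red cell, liver and muscle sums each rested largely on 1 abundant miRNA, and the members of a list did not all follow its sum. The red cell list had 5 of 6 names with a row. Its summed level, nearly all of it miR-486, was 4806 to 5774 RPM in the Exe-labelled libraries and 8768 to 11312 in the Sed-labelled ones, while miR-16-5p lay the other way (8.42 and 8.67 against 0 and 1.97 RPM) and miR-451-5p overlapped (54.0 and 70.4 against 14.7 and 148.1 RPM). miR-144-3p and miR-144-5p were each above 0 in 1 Exe-labelled library and at 0 in the other 3 libraries. The liver list (3 of 3 with a row, led by miR-122-5p) summed to 811 to 821 against 1462 to 1601 RPM. Its miR-192-5p overlapped (114.9 and 88.9 against 68.5 and 131.5 RPM), and miR-194-5p was above 0 in Exercise replicate 1 alone. miR-122-5p, the main miRNA of hepatocytes, held 695.6 and 731.7 against 1394 and 1469 RPM and was called lower in the Exe-labelled libraries (limma adjusted p = 0.017), only just past the limit on the fold change. That call was lost with a pseudocount of 10, as a share of listed reads, with a single variance prior and without any one library other than Sedentary replicate 1. The platelet list (5 of 5, led by miR-191a-5p) summed to 195 to 214 against 139 to 144 RPM. Most of that gap was miR-191a-5p (102.3 and 81.5 against 48.2 and 35.6 RPM, not called, limma adjusted p = 0.058), while the groups overlapped for miR-126a-3p, miR-21-5p and miR-223-3p. The fifth member, miR-126a-5p, lay the same way as the sum at a low level (2.41 and 4.47 RPM against 0 in both) and was not called (limma adjusted p = 0.098). In the muscle list (5 of 7, led by miR-1-3p) the sums were 452 to 497 against 371 to 432 RPM, but the median log2 fold change of its 4 tested members was -0.20. miR-206-3p, which is made in skeletal muscle, held 21.9 and 14.8 against 41.6 and 72.9 RPM and was not called (limma adjusted p = 0.074). Their part in the difference of miR-140-3p was not tested.

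The miRNAs with a pattern most like that of miR-140-3p over the 4 libraries were found by the Euclidean distance of log2(RPM + 1), each centred on its own mean, among 177 others. The closest were miR-19b-3p (distance 0.20), miR-30e-3p (0.20), miR-7b (0.21), miR-17-5p (0.21) and miR-30e-5p (0.28). All but miR-30e-3p had means of 0.681 to 0.873 RPM and 0 to 3 reads in each Sed-labelled library. On this scale a rise from 0 to between 1 and 2 RPM gives a difference about as large as that of miR-140-3p. miR-30e-3p was thus the 1 miRNA of the 5 at a like level, with 11396 and 9470 reads against 4273 and 4819, and was higher by 1.15 on the log2 scale (SE 0.17, limma adjusted p = 0.025). That call was lost with a single variance prior, with all miRNAs kept whatever their level, and without Exercise replicate 1 (limma adjusted p = 0.14).

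Among the 81 others with a mean of at least 10 RPM, a limit chosen after seeing the data, the closest 5 were miR-30e-3p, miR-708-3p, miR-150-5p, miR-183-5p and miR-182. miR-150-5p, which is abundant in lymphocytes, held 148.7 and 129.4 against 41.6 and 56.9 RPM, and miR-183-5p held 83.5 and 105.3 against 35.3 and 36.3. miR-183-5p and miR-182 belong to one gene cluster. These distances describe 4 libraries in 2 groups, so that likeness is mostly likeness of the group difference.

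**Figure D4:**
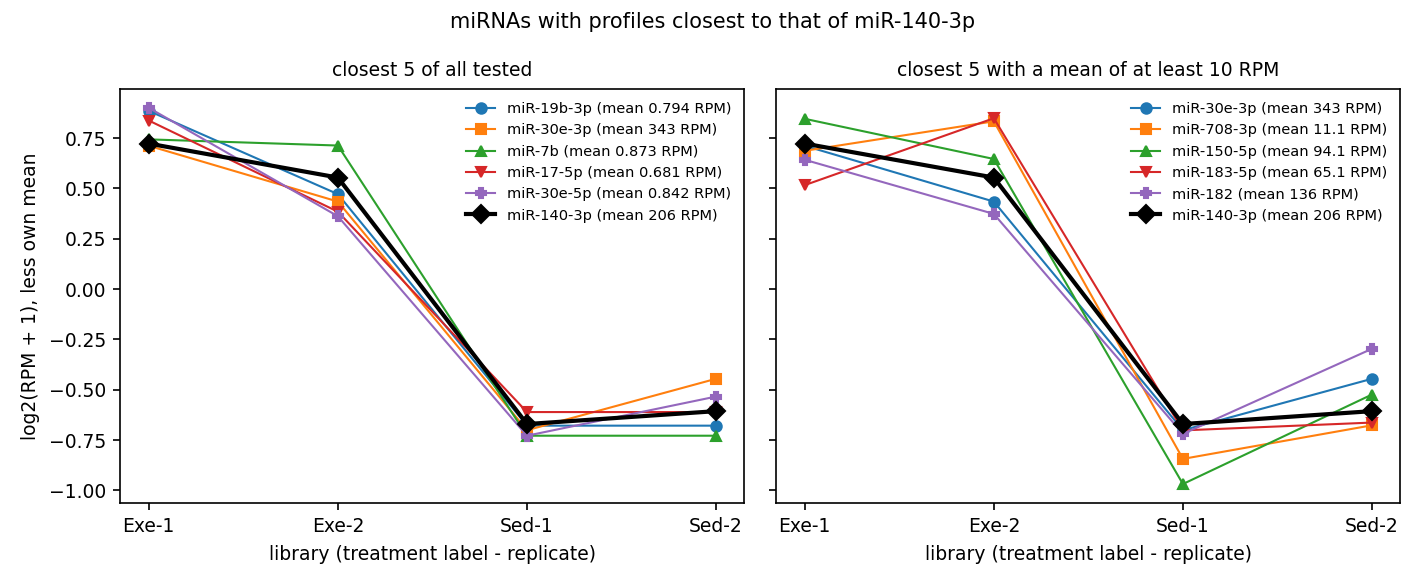
Centred log2(RPM + 1) (y axis) by library (x axis) for miR-140-3p, in black, with the 5 closest profiles of all tested miRNAs (left) and of those with a mean of at least 10 RPM (right). Each is high in both Exe-labelled libraries; on the left, 4 of the 5 have means under 1 RPM, while miR-30e-3p, in both panels, has a mean of 343 RPM.

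Which arm of miR-140 dominated in serum Exos cannot be given, since the values analysed here hold the 3p arm alone. Arms of other hairpins were matched by the name as written, so the counts are of names, not of hairpins. Arms named with and without a copy number, such as miR-24-3p and miR-24-2-5p, were counted apart even where they can share a hairpin. Of the 171 names with an arm in the list, 77 had the 3p arm alone among these values, as miR-140 did. The 5p arm alone was listed for 59 names and both arms for 35. Among the 77, 4 had a 3p arm with a higher mean than miR-140-3p.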

How the data were processed

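Small RNA libraries of serum Exos were analysed from 4 samples, grouped by treatment label. The authors trimmed reads with cutadapt, aligned them to mRatBN7.2 with an aligner that the methods call Bowtie2 and the labels Bowtie, counted them on miRBase miRNAs with featureCounts, and deposited values that they name TPM. These deposited values are RPM of a library total, not scaled for length, and what that total includes is unknown. Sequences come from RefSeq (GRCr8), another assembly.

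From the RPM values, limma 3.58.1 (R 4.3.3) was fitted on log2(RPM + 1) for all miRNAs above 0 in at least 2 libraries, with a variance prior that follows the mean and Benjamini-Hochberg adjustment; the thresholds were those of the study, whose own test needs counts. The fit was run on simulated data with planted changes and the same spread on the log scale for every miRNA. Simulated levels were raised above the measured ones, so the run says nothing of values near the floor. Reads derived from the smallest value served for depth, intervals and exact tests (Python 3.11.15, SciPy 1.17.1). No count model was fitted to them. The hairpin was folded with ViennaRNA 2.7.2. The members and lists were chosen with earlier results of these data known. Named miRNAs are miR-140, the 5 closest profiles, 2 neighbours in level on either side, the closest sequence, called members of the cartilage list and the highest member of each marker list; the others named were chosen after their values were seen. Same-numbered libraries did not deviate together (correlation -0.15), so the numbers were not taken to pair them. The alternatives are given at the end.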

Additional observations from a re-analysis of the deposited data

How the results depend on the processing

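The log2 fold change of miR-140-3p, 1.28, lay between 1.22 and 1.28 with pseudocounts of 10 and 0.1 and was 1.28 with the replicate block. It was 1.17 with median-of-ratios scaling and 1.55 with scaling to the sum of the listed values. With the groups taken from the title letters it was -1.28 by construction. With each library left out in turn it ranged from 1.19 to 1.36. Its rank by mean level was 16, and 17 with either scaling.

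Limma called 14 miRNAs. It called 3 without the filter on low values, where more miRNAs enter the adjustment, 29 with scaling to the sum of the listed values, and 39 at an unadjusted p. With a single variance prior it called 0, against 44 at an unadjusted p under 0.05 with the same fold. With each library left out in turn, where the lone library of a group is assumed to vary like the others, the counts ranged from 0 to 39. The 0 came without Exercise replicate 1 (15 at an unadjusted p) and 7 without Exercise replicate 2, against 30 and 39 without Sedentary replicate 1 and 2. With the replicate block it called 18. Of 16 tested miRNAs of the cartilage list, 2 were called, and 1 of them was miR-140-3p, which was chosen with its difference known, so nothing is read from these counts. The number was 1 of 19 without the filter (1.23% of all called), 1 of 16 with median-of-ratios scaling (7.87%), 4 of 16 with scaling to listed values (16.3%), 4 of 16 at an unadjusted p (21.9%), and 0 of 16 with a single variance prior (3 at an unadjusted p). It was 0 of 14 without Exercise replicate 1 (3 at an unadjusted p), 2 of 15 without Exercise replicate 2 (4.52%), 4 of 16 without Sedentary replicate 1 (17.9%) and 4 of 15 without Sedentary replicate 2 (23.2%). The cause of these changes was not tested.

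The count of reads limits miR-140-3p little, with at least 2540 reads a library, but each group has 2 libraries.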

Other observations

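Both arms of other hairpins were listed for 35 names, matched as written. The 3p arm was above the 5p arm in all 4 libraries for 8 of them, the 5p arm above the 3p arm for 11, and the order varied or tied for 16. miR-30e, whose arms were both among the 5 profiles closest to that of miR-140-3p, had 518.6 and 427.7 RPM of its 3p arm beside 2.09 and 1.13 RPM of its 5p arm in the libraries labelled Exercise. In those labelled Sedentary the 3p arm had 194.1 and 231.9 RPM, beside 0 and 0.144 RPM of the 5p arm.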
